A study of Mus musculus with 7 samples.

Results

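CD8 T cells were examined in whole tumours of the NSCG mouse glioblastoma model, as deposited droplet single-cell RNA counts. A cell was taken as a CD8 T cell when it held at least 2 UMIs (unique molecular identifiers, each standing for 1 captured transcript) of Cd3d, Cd3e and Cd3g, at least 1 of Cd8a and Cd8b1, none of Cd4 or Foxp3, and at most 1 of the macrophage genes C1qa, C1qb and C1qc. This rule kept 1138 of the 51795 cells that passed the depth filter in 7 libraries. The cells were thus chosen by their own UMIs of these genes, whose levels are a description and no finding.

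All mice were C57BL/6 animals of wild-type genotype, 7 to 10 weeks old, bearing the NSCG-mCherry line, which carries EGFRvIII and lacks Arf/Ink4a. Tumours were taken at about day 14, after 3 rounds of treatment where mice were treated, and the fresh tumours of at least 2 mice per group were pooled into 1 library, so that a library is 1 replicate. The untreated group (UT) had 1 library. The isotype group (IgG) had 2 libraries from mice given 10 mg/kg IgG2b; the protocol gives the isotype arm run beside BPI an oral diluent as well, and the labels do not say which library that was. The BP group had 2 libraries from mice given the anti-VEGF antibody B20 at 5 mg/kg and anti-PD-L1 at 10 mg/kg, injected every 3 days, starting 6 to 7 days after implantation. The BPI group had 1 library from mice that also received IPI-145, an inhibitor of phosphoinositide 3-kinase (PI3K) delta and gamma, at 10 mg/kg by daily gavage. The CD40 group had 1 library from mice given 2 doses of 100 µg of a CD40 agonist antibody, 5 days apart; the protocol allows a dendritic cell vaccine beside it and the labels do not say whether one was given.

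CD8 T cells recognise peptides on MHC class I through the T cell receptor with its CD3 chains and the CD8 co-receptor, and kill with perforin and granzymes while releasing interferon gamma and chemokines. Within tumours they commonly carry inhibitory receptors such as PD-1, whose ligand PD-L1 is the target of one of the antibodies used here. In gliomas they are usually scarce beside macrophages and microglia.

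The libraries held 68997476 to 186793886 UMIs in all, and their CD8 T cells held 61146 UMIs (IgG 1) to 4953927 UMIs (BP 1). The median CD8 T cell held from 3294.5 UMIs in BPI to 8511.5 in UT, and the median tumour cell 10942.5 to 19550. None of the 4 CD8 T cell markers Cd3d, Cd3e, Cd8a and Cd8b1 was at 0 in any library. Their summed level ran from 838 UMIs per 1000000 UMIs of the library's CD8 T cells (CPM) in IgG 2 to 2417 in UT, against 0.05 to 1.44 in tumour cells. A doublet score marked 100 of the 1138 cells, from 0% in IgG 2 to 16.7% in CD40. No barcode was a CD8 T cell in more than 1 library, and 14 CD8 T cell barcodes were cells of another kind elsewhere. At the edge of the rule, 38 cells were inside with exactly 2 CD3 UMIs and 38 outside with 1. Another 143 were inside with a single Cd8a or Cd8b1 UMI.

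3 of the 27 IgG cells each held over 20% of their library's CD8 T cell UMIs and together 49.4% of all IgG ones. The cell in IgG 1 held 17633 UMIs, was scored as a doublet and carried 13 UMIs of tumour and glial markers. In IgG 2, a cell of 40100 UMIs, with 2 CD3 UMIs and 1 Cd8 UMI, carried 272 UMIs of tumour and glial markers and 174 of endothelial and mural ones, 110 of them from Cldn5. The other large cell there, with 40286 UMIs, carried 99 of Xcl1. Gene results against IgG were therefore computed with these 3 cells and without them, when 24 IgG cells and 100300 UMIs remained. A call lost without them does not mean that the difference was gone, and examples of the difference left are given. In CD40, a single cell held 92% of the Apoe and 98% of the Lyz2 UMIs, and summed myeloid markers there came to 3103 CPM, against 81.8 to 375 in the others. Of the 13 myeloid markers, 11 were at 0 in IgG 1, 9 in IgG 2, 3 in UT, 1 each in BP 2 and CD40 and none in BP 1 and BPI. Summed tumour and glial markers came to 2362 CPM in IgG 2 and 671 to 1268 in the others, and endothelial and mural markers to 1276 in IgG 2, 346 in CD40 and 52.4 to 123 in the others. Their part in the gene results was not tested beyond leaving such cells out. In UT, Xist was at 0 in CD8 T cells, against 328 to 836 CPM elsewhere, and the ribosomal RNA-derived transcript Gm42418 was at 89.4 CPM against 5426 to 40018. UT also used a barcode list of its own, so that for UT the lack of treatment and these differences between libraries cannot be told apart.

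CD8 T cells made up a larger share of the cells that passed the filter under BP and BPI than under IgG. They were 0.192% and 0.187% of all cells in the IgG libraries, with 95% exact (Clopper-Pearson) intervals of 0.0991 to 0.335% and 0.105 to 0.309%. In BP 1 the share was 4.66% (4.26 to 5.08%, 491 cells) and in BP 2 2.06% (1.72 to 2.46%, 124 cells). It was 5.37% in BPI (4.86 to 5.93%, 378 cells), 1.03% in UT (0.784 to 1.33%, 58 cells) and 0.721% in CD40 (0.551 to 0.927%, 60 cells). Both BP libraries lay above both IgG libraries, and the mean was 3.36% ± 1.84 in BP against 0.190% ± 0.00313 in IgG (SD, n = 2 each). A two-sided exact permutation test of that difference of 3.17 percentage points gave p = 0.333, the smallest p that 2 libraries against 2 allow (adjusted p = 0.4 over 6 tests of shares). The difference was 1.45 points when each cell was thinned to 1000 UMIs before the rule. It was 1.87 points with BP 1 left out and 4.47 with BP 2 left out. UT and CD40 lay between the IgG and BP libraries. Among cells with a UMI of the leukocyte gene Ptprc, the CD8 share was 3.64% and 1.20% in IgG and 9.48% and 14.5% in BP. On that base it was 18.6% in BPI, while UT at 4.33% and CD40 at 4.15% stood beside IgG 1. Intervals here and below cover counting error only.

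Cells with CD3 as a whole were also more common under BP and BPI, and CD8 T cells were a larger part of all CD3 cells. Cells with CD3 were 0.687% and 0.787% of all cells in IgG, 12.5% and 3.83% in BP, 8.9% in BPI, 1.84% in CD40 and 5.17% in UT. Among these CD3 cells, the CD8 share was 27.9% and 23.8% in IgG, 37.2% and 53.9% in BP, 60.4% in BPI, 39.2% in CD40 and 19.9% in UT. BP again lay above IgG in every pairing, by 19.7 percentage points on the means (exact permutation p = 0.333, adjusted p = 0.4), and BPI had the highest share of the 7 libraries. With BP 2 left out the difference was 11.4 points. CD3 cells without a UMI of Cd4, Cd8a, Cd8b1 or Foxp3 were 55.8% and 47.6% in IgG, and 19.6% and 30.4% in BP. They were 31.3% in BPI, 41.8% in CD40 and 29.2% in UT. These cells are in the denominator of the CD8 share, and their part in its difference was not tested. Set against conventional CD4 T cells (CD3 cells with Cd4 and without Cd8a, Cd8b1 or Foxp3), there were 13 CD8 T cells per CD4 T cell in BPI, 1.62 and 4.77 in BP, 2.40 and 0.882 in IgG, 4.0 in CD40 and 0.523 in UT. This ratio rested on 5 and 17 CD4 cells in IgG, and its ranges in BP and IgG overlapped. UT had the lowest CD8 share of CD3 cells of the 7 libraries.

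**Figure D1:**
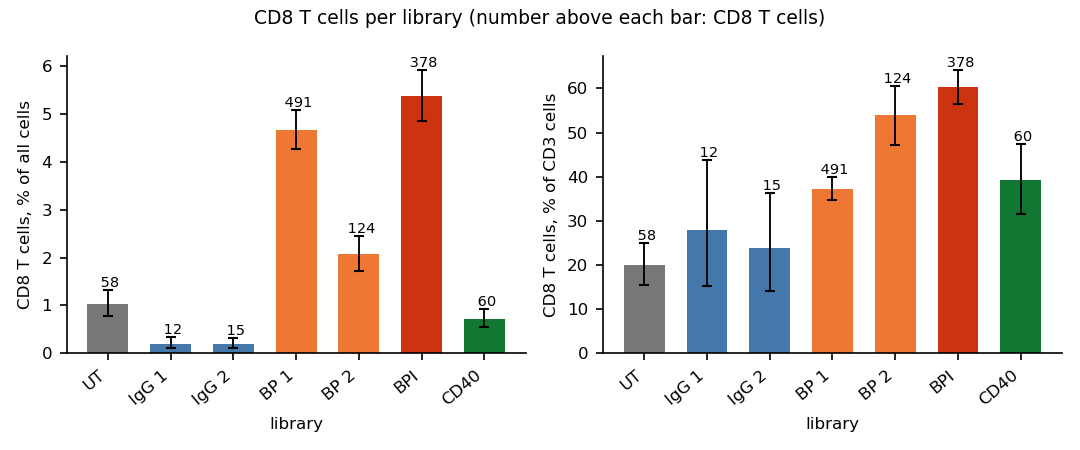
CD8 T cells in each library as a percentage of all cells (left) and of CD3 cells (right); bars are the measured shares, black lines 95% exact binomial intervals, and the number above each bar is the count of CD8 T cells. Both BP bars and the BPI bar stand above both IgG bars in both panels, and the IgG bars rest on 12 and 15 cells.

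The states of the cells were described by whether a cell held transcripts of 4 short lists after each cell was thinned to 1000 UMIs, so that deep and shallow cells could be compared. The states overlap and are ranges of detection, not cell types. A UMI of a granzyme or of Prf1 (killing state) was found in 33.3% and 26.7% of the IgG cells, 67.2% and 59.7% in BP, 64.3% in BPI, 56.9% in UT and 21.7% in CD40. The same list was found in 0.183 to 1.95% of the tumour cells. UMIs of an inhibitory receptor (Pdcd1, Havcr2, Lag3, Tigit, Ctla4, Entpd1, Cd160 or Cd244a) were found in 0% and 6.67% in IgG, which is 0 and 1 cells, 56.4% and 41.1% in BP, 39.9% in BPI, 51.7% in UT and 25% in CD40. For both states the BP libraries lay above the IgG libraries without overlap, by 33.4 and 45.4 percentage points (exact permutation p = 0.333 each, adjusted p = 0.4). Unthinned, the killing state was held by 50% and 33.3% of the IgG cells and 89.2% and 80.6% of the BP cells, with the inhibitory state in 41.7%, 33.3%, 91.9% and 74.2%.

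The recirculation state, a UMI of any gene of a list of 9 that includes Ccr7, S1pr1, Klf2, Lef1, Tcf7, Il7r, Dapl1 and Satb1, did not separate BP from IgG, and in thinned cells was less frequent in UT and CD40 than in the other libraries. It was held by 50% and 60% in IgG, 62.7% and 50.8% in BP, 49.5% in BPI, 40% in CD40 and 32.8% in UT (BP minus IgG 1.77 points, exact permutation p = 0.667). Unthinned, the order was another: the shares were 86.2% in UT, 88.3% in CD40, 83.3% and 100.0% in IgG, 96.7% and 85.5% in BP and 83.6% in BPI. Its background in tumour cells was higher than for the killing list, at 5.8 to 25.1%. The state with at least 2 UMIs of cell cycle genes was held by 25% and 13.3% in IgG, 32.8% and 30.6% in BP, 36% in BPI, 32.8% in UT and 26.7% in CD40 (BP minus IgG 12.6 points, exact permutation p = 0.333, adjusted p = 0.4). Tumour cells held it in 74 to 91%. Unthinned, the cycling shares of CD8 T cells were 66.7% and 53.3% in IgG, 76.8% and 46.8% in BP and 51.9% in BPI. They were 84.5% in UT and 60% in CD40. BP 2 and BPI then lay below both IgG libraries, and BP minus IgG was 1.78 points.

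Killing and recirculation transcripts often met in the same cell. In BP 1, 37.9% of the CD8 T cells held both, 29.3% killing alone, 24.8% recirculation alone and 7.94% neither. In UT, 10.3% held both and 46.6% killing alone. The share of cells with recirculation transcripts was lower among killing cells than among the others in each of these libraries. In BP 1, 56.4% of the killing cells and 75.8% of the others held them, against 44.6% and 60% in BP 2, 47.3% and 53.3% in BPI and 18.2% and 52% in UT. Inhibitory receptors had no common direction: they were in 59.7% of killing cells and 49.7% of the others in BP 1, 39.2% and 44% in BP 2, 44.4% and 31.9% in BPI, and 63.6% and 36% in UT. These are descriptions over the cells of single libraries, with no test.

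**Figure D2:**
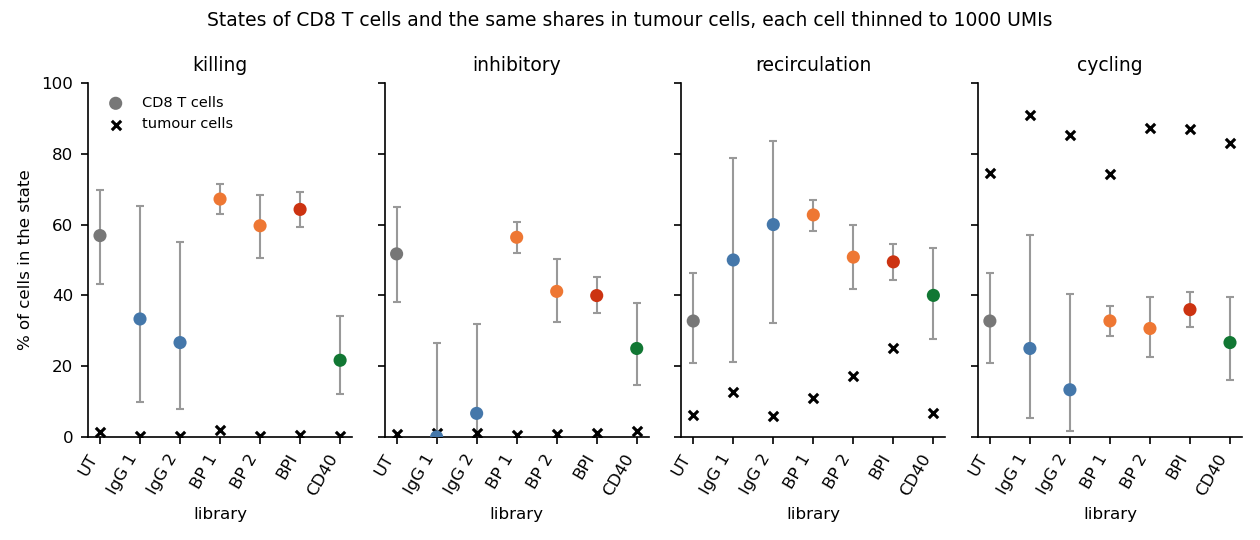
Share of CD8 T cells (circles, with 95% exact binomial intervals) and of tumour cells (crosses) of each library in the killing, inhibitory, recirculation and cycling states, each cell thinned to 1000 UMIs. The BP, BPI and UT circles lie above the IgG circles for the killing and inhibitory states, the recirculation circles of IgG, BP and BPI overlap with UT and CD40 below them, and the crosses stand near 0 for the killing and inhibitory states and above all circles for cycling.

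Genes were then tested on UMIs summed over the CD8 T cells of each library. Of 9976 genes, 203 differed between BP and IgG (113 higher, 90 lower in BP), 148 between BPI and IgG (80 and 68), 9 between CD40 and IgG (5 and 4) and 6 between BPI and BP (1 and 5), by edgeR's quasi-likelihood test with Benjamini-Hochberg adjustment. In a fit with all 7 libraries, 135 of 10133 genes differed between UT and IgG (84 and 51). Without the 3 large IgG cells the counts were 31 for BP, 44 for BPI, 33 for CD40 and 19 for BPI against BP, of 9790 genes, and 71 of 9963 for UT. Of these, 23, 30, 4, 6 and 40 were also among the first counts. The BP, BPI and CD40 comparisons share the IgG libraries. With the UT library counted as a further control beside IgG, edgeR called no gene for BP or BPI (698 and 400 genes at an unadjusted p under 0.05; no other tool was run on that grouping), and the values below show UT as high as BP for many genes. With IgG 2 left out, so that IgG rested on the 12 cells of IgG 1, 1 gene differed for BP and 3 for BPI; with IgG 1 left out, 206 and 141 did.

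Gzmb and a minority of the other killing genes rose in BP, BPI and UT against IgG. Of 18 killing genes tested, 7 rose in BP, where 1.13% of all genes did, 4 in BPI (0.802% of all genes), 4 in UT (0.829%) and none in CD40 (0.0501%). None fell, where 0.902%, 0.682%, 0.503% and 0.0401% of all genes did; in either direction 2.03%, 1.48%, 1.33% and 0.0902% of all genes were called. Their median log2 difference was 2.89 for BP, 1.55 for BPI, 1.90 for UT and 0.10 for CD40, against 0.14, 0.14, 0.10 and 0.12 over all genes; with genes at 0 UMIs in IgG set to a floor of 3 UMIs over the IgG group, the medians were 1.97, 0.70, 0.86 and 0.03. With the large cells left out, 3 of 18 remained in BP (0.225% of all genes higher, 0.317% in either direction), 3 in BPI (0.398% and 0.449%), 3 in UT (0.472% and 0.713%) and none in CD40 (0.266% and 0.337%). Of the 7 genes in BP, 3 (Gzmc, Gzmd and Gzmf) were close to 0 in BP 2, and 6 of the 18 (Gzmc to Gzmg and Gzmk) had 0 UMIs in IgG, so that these could enter the test only through the libraries where they were high. The counts and medians of this list are therefore a description. Gzmb and Serpinb9 were called in both BP and BPI, with and without the large cells.

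Gzmb encodes granzyme B, the protease that triggers death of target cells. It lies at chr14:56258838-56262260 on the minus strand (GRCm38). Its level was 3158 CPM in UT, 147 and 160.4 in IgG, 1789.7 and 1164 in BP, 1624 in BPI and 71.4 in CD40. Both BP libraries and BPI stood above both IgG libraries, UT stood above all, and CD40 lay below IgG. The differences were 3.33 ± 0.49 (log2, SE) for BP (adjusted p = 1.21e-06), 3.67 ± 0.53 for BPI (adjusted p = 1.41e-06) and 4.54 ± 0.52 for UT (adjusted p = 9.75e-11). Without the large cells the IgG levels were 207 and 387 CPM and the adjusted p-values 0.00162, 0.000519 and 3.15e-08; without cells with tumour or myeloid UMIs it was 0.00367 in BP, and with IgG 2 left out, it was 0.246 in BP and 0.114 in BPI. The differences with IgG 2 left out stayed as large, at 3.42 and 3.76. Within the libraries of consecutive number (IgG 1, BP 2 and BPI), the levels were 147, 1164 and 1624 CPM.

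Prf1 encodes perforin, which opens the target cell's membrane. Its level was 342 CPM in UT, 32.7 and 14.6 in IgG, 205 and 158 in BP, 172 in BPI and 30.4 in CD40. The rise of 3.23 ± 0.70 in BP (adjusted p = 0.0024) and 3.33 ± 0.75 in BPI (adjusted p = 0.00449) no longer passed without the large cells (adjusted p = 0.216 and 0.276), whereas that of 4.23 ± 0.73 in UT did (adjusted p = 3.82e-05, and 0.00827 without them). The granzyme inhibitors Serpinb9 and Serpinb6b, which shield killer cells from their own proteases, rose as well. Serpinb9 was at 61.7 CPM in UT, 16.4 and 7.29 in IgG, 110.2 and 146 in BP, 204 in BPI and 22.8 in CD40; all its IgG UMIs came from the large cells, since both IgG libraries were at 0 without them. It rose by 3.73 ± 0.83 in BP (adjusted p = 0.00353, 0.0101 without large cells) and 4.59 ± 0.85 in BPI (adjusted p = 0.000254 and 0.00027). Without those cells Serpinb9 could enter the test only through the libraries where it was high. Serpinb6b rose by 2.55 ± 0.69 in BP (adjusted p = 0.0281, 0.0612 without, when the difference was 3.76) and 3.06 ± 0.73 in BPI (adjusted p = 0.00976, 0.0146 without).

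Of the other killing genes, Gzma, Gzmk, Nkg7 and Fasl were called in neither BP nor BPI. Gzma, a granzyme with a different cleavage preference, was at 188 CPM in UT, 0 and 87.5 in IgG, 224 and 107 in BP, 94.4 in BPI and 173 in CD40, and the IgG and BP ranges were 0 to 87.5 and 107 to 224 CPM (adjusted p = 0.163). Gzmk, a granzyme of less differentiated CD8 T cells, had 0 UMIs in IgG 1 and IgG 2, with 3.84 and 1.62 CPM in BP, 1.67 in BPI, 17 in UT and 34.9 in CD40. Nkg7, a granule membrane protein, was at 2075 CPM in UT, 883 and 445 in IgG, 1270.3 and 1471 in BP, 1758 in BPI and 797 in CD40; it rose only in UT (1.88 ± 0.48, adjusted p = 0.0194, and 0.391 without large cells), and the difference between UT and the other groups was not tested. Fasl, the ligand of the death receptor Fas, was at 80.2 CPM in UT, 65.4 and 21.9 in IgG, 118 and 136.4 in BP, 94.9 in BPI and 50.1 in CD40, with no call.

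The granzymes of the Gzmb neighbourhood on chromosome 14, Gzmc to Gzmg, were found in BP 1 and, mainly as Gzmc, in UT, and hardly in the other libraries. Gzmf, at chr14:56205263-56211417, stood at 471 CPM in BP 1, 15.4 in UT, 1.62 in BP 2 and 1.11 in BPI, and at 0 in IgG and CD40. Gzmc, at chr14:56231441-56234656, stood at 181, 119, 4.87 and 7.77 CPM in the same order. Gzmd stood at 125 CPM in BP 1 and 1.54 in UT, and Gzme and Gzmg at 61.6 and 89.6 CPM in BP 1 alone. Pooled over the BP libraries, Gzmf was 27.7-fold and Gzmc 10.7-fold above the IgG floor of 15.1 CPM (adjusted p = 0.000893 and 0.00953, and 0.000262 and 0.0612 without the large cells). BP 2 alone lay below that floor for both. Without the large cells the IgG floor was 29.9 CPM and the folds 14 and 5.39. With the UMIs in few cells, these folds are no lower bounds. Any of the 5 genes was found in 91 of 491 CD8 T cells of BP 1 (18.5%), 11 of 58 of UT (19.0%), 3 of 124 of BP 2, 8 of 378 of BPI and in none of the 27 IgG and 60 CD40 cells; for IgG, 0 of 27 cells allows a share of cells with such a UMI of up to 11.1%, which does not limit the share of cells expressing the genes. In BP 1, 38 cells held at least 2 of the genes and 79 also held Gzmb, and the 10 richest cells held 77.4% of the 4596 UMIs. These genes are close copies of each other, among which the authors' counting could have split reads, so that the values of single members are uncertain.

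The 250 bases before the start of Gzmb, which was high in both BP libraries, and of Gzmc and Gzmf, which were high in 1, are shown to set the neighbouring genes side by side (RefSeq, GRCm38.p6, minus strand, each read 5′ to 3′). The starts are those of RefSeq, which differ for Gzmb and Gzmf from the gene boundaries given above, taken from another annotation of the same build, and distances are counted from the RefSeq starts. Capitals mark matches to the AP-1 motif TGANTCA, the cyclic AMP response element (CRE) TGACGTCA and the RUNX motif TGTGGT, each searched on both strands.
Gzmb, chr14:56262335-56262584: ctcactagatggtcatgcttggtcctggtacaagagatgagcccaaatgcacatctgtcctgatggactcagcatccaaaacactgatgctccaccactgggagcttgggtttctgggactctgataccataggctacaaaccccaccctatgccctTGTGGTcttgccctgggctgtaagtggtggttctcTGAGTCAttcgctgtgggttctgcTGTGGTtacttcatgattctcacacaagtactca
Gzmc, chr14:56234658-56234907: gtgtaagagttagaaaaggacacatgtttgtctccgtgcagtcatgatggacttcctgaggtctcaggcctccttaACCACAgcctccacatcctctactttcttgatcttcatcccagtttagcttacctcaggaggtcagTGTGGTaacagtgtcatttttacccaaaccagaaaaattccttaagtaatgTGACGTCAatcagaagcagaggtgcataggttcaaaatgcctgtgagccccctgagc
Gzmf, chr14:56211408-56211657: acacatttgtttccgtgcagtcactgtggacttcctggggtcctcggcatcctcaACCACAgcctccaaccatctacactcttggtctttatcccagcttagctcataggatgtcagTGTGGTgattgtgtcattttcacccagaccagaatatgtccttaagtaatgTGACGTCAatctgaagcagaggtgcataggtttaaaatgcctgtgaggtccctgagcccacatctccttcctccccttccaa
The Gzmb window held 1 AP-1 match, 58 bases before the start, and RUNX matches at 93 and 34 bases. The Gzmc and Gzmf windows held no AP-1 match but 1 CRE match each, at 57 and 82 bases, and RUNX matches at 174 and 108 and at 195 and 133 bases. Over 32851 promoter windows of the same length, 6.75% held the AP-1, 1.55% the CRE and 14.0% the RUNX motif. A match describes the letters only.

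A minority of the genes of inhibitory receptors and exhaustion rose in BP, BPI and UT, and fewer passed without the large IgG cells. Of 25 genes of this list, 5 rose in BP (Pdcd1, Havcr2, Ctla4, Entpd1 and Id2), where 1.13% of all genes did, and the same 5 in BPI (0.802% of all genes), where Cd200 fell. In UT 6 rose (Pdcd1, Lag3, Ctla4, Id2, Rgs16 and Ikzf2; 0.829% of all genes), and in CD40 none did (0.0501%). The medians were 1.76, 1.37, 2.03 and 0.98 for BP, BPI, UT and CD40. Without the large cells, Havcr2 remained in BP (0.225% of all genes higher), none in BPI (0.398%), and Pdcd1, Lag3, Ctla4 and Id2 in UT (0.472%). Havcr2 was then at 0 UMIs in both IgG libraries. It could enter that test only through the libraries where it was high, so that this call is a description. The shares of all genes given here are the background of the counts of the other lists too.

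Pdcd1 encodes PD-1, the receptor whose ligand was blocked in BP and BPI; it lies at chr1:94038305-94052553 (GRCm38, minus strand). Its level was 339 CPM in UT, 0 and 7.29 in IgG, 162 and 76.3 in BP, 91 in BPI and 30.4 in CD40. The IgG values were 0 and 1 UMI, and every other library stood above them. The difference was 4.64 ± 0.98 for BP (adjusted p = 0.00178, 0.12 without large cells), 4.44 ± 1.06 for BPI (adjusted p = 0.00942, 0.281 without) and 6.24 ± 0.94 for UT (adjusted p = 1.33e-06, 0.000102 without). Havcr2, encoding TIM-3, was at 67.8 CPM in UT, 16.4 and 0 in IgG, 147 and 82.8 in BP, 79.9 in BPI and 4.55 in CD40, and rose by 4.55 ± 0.99 in BP (adjusted p = 0.00273, 0.0251 without) and 4.21 ± 1.08 in BPI (adjusted p = 0.0198, 0.0831 without). Lag3, a receptor that binds MHC class II, was at 248 CPM in UT, 0 and 7.29 in IgG, 86.8 and 17.9 in BP, 25.5 in BPI and 3.04 in CD40; it rose in UT (5.79 ± 1.0, adjusted p = 4.33e-05, 0.00241 without), and its BP levels, though above IgG, gave an adjusted p of 0.096.

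Ctla4, which competes with CD28 for its ligands, was at 251 CPM in UT, 32.7 and 0 in IgG, 196 and 156 in BP, 145 in BPI and 124 in CD40. It rose by 4.15 ± 0.82 in BP, 4.05 ± 0.88 in BPI and 4.75 ± 0.86 in UT (adjusted p = 0.000798, 0.00336 and 9.33e-05), and without the large cells only in UT (adjusted p = 0.00903, against 0.0612 and 0.12). Entpd1, encoding the ATP-degrading enzyme CD39, was at 122 CPM in UT, 32.7 and 14.6 in IgG, 220.4 and 128.3 in BP, 135 in BPI and 51.6 in CD40, with adjusted p = 0.00328 in BP and 0.019 in BPI, and 0.0634 and 0.175 without the large cells, when its log2 differences were 3.09 ± 0.86 and 2.93 ± 0.92. With all cells they were 3.16 and 2.98. Tigit was at 21.6 and 17.9 CPM in BP and 16.4 and 0 in IgG, with no call. Tox, a transcription factor of exhausted T cells, was not called either: it was at 106 CPM in UT, 131 and 21.9 in IgG, 115 and 120.2 in BP, 119.9 in BPI and 351 in CD40, so that CD40 was highest and IgG 1 stood beside BP.

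Interferon gamma and several chemokines were highest in BPI. Of 14 cytokine and chemokine genes, 5 rose in BPI (Ifng, Ccl1, Ccl3, Ccl4 and Cxcl10, where 0.802% of all genes did) and 4 in BP (Ifng, Ccl1, Ccl3 and Cxcl10, 1.13%) with Xcl1 lower. Ccl1, at 0 UMIs in IgG, could enter the test only through the libraries where it was high. The counts that include it are therefore a description. Of 15 tested for UT, 4 rose there (Spp1, Ccl3, Cxcl10 and Ifng; 0.829%), and none was called in CD40. With the large cells left out, 4 remained in BPI (Ifng, Ccl1, Ccl3 and Ccl4), Ccl1 and Xcl1 in BP, and Spp1 in UT. Of the lost calls, the Cxcl10 differences stayed about as large, at 2.94 in BP, 3.31 in BPI and 2.95 in UT against 3.02, 3.38 and 3.01 with all cells (adjusted p = 0.106, 0.051 and 0.129 without). So did Ccl3, at 2.67 in BP and 2.96 in UT against 2.74 and 3.01 (adjusted p = 0.127 without in UT). The summed level of the list in tumour cells was 1002 CPM in UT, 621 and 187 in BP and 522 in BPI. It was 106 and 88.3 in IgG and 88.0 in CD40. In CD8 T cells it was 5221 CPM in UT, 4078 and 6503 in BP and 9071 in BPI. There it was 2846 and 5205 in IgG and 4653 in CD40. The part of the tumour level in the result was not tested.

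Ifng (chr10:118441046-118445892, GRCm38, plus strand) was at 309.8 CPM in UT, 16.4 and 102 in IgG, 329 and 435 in BP, 1569.7 in BPI and 28.8 in CD40. BPI stood above every other library, both BP libraries stood above both IgG libraries, and UT was close to BP 1. It rose by 4.76 ± 0.60 in BPI (adjusted p = 1.15e-07, 1.57e-08 without the large cells), 2.55 ± 0.55 in BP (adjusted p = 0.00207, 0.0868 without) and 2.32 ± 0.60 in UT (adjusted p = 0.0227, 0.24 without). Between BPI and BP, where 0.0601% of all genes differed, Ifng was the only gene higher in BPI (2.21 ± 0.50, adjusted p = 0.0471, 0.00578 without the large IgG cells). Beside that fit with all cells, the call held under 6 of 12 alternatives. It was lost with BP 1 left out and with DESeq2 (adjusted p = 1 in both), with IgG 1 or IgG 2 left out (0.217 and 0.209), without doublets (0.0605) and with thinned cells (0.913). The difference lay between 1.70 (thinned) and 2.60 (no doublets) over these 6. The richest cell of BPI held 860 of the 2828 Ifng UMIs; without the richest cell of each library the levels were 1098 CPM in BPI and 247 and 375 in BP. After thinning, Ifng was found in 23% of the BPI cells, 13.6% and 23.4% in BP, 12.1% in UT, 0% and 13.3% in IgG and 6.67% in CD40, so that BPI and BP 2 had a like share of cells with the transcript.

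Ccl1, a chemokine that attracts cells with CCR8, had 0 UMIs in IgG 1 and IgG 2 and was at 46.2 and 174 CPM in BP, 222 in BPI, 35.5 in UT and 47.1 in CD40. This was 3.99-fold above the IgG floor in BP (adjusted p = 0.00121) and 14.7-fold in BPI (adjusted p = 2.39e-05). Without the large cells it was 2.02-fold in BP (adjusted p = 0.0251) and 7.42-fold in BPI (adjusted p = 0.000153). A Ccl1 UMI was found in few cells, 20 of 491 (4.07%) in BP 1, 5 of 124 (4.03%) in BP 2, 17 of 378 (4.50%) in BPI, 4 of 58 in UT, 1 of 60 in CD40 and 0 of 27 in IgG, which allows up to 11.1% of cells with a UMI. The richest cell held 123 of the 229 Ccl1 UMIs of BP 1 and 50 of the 107 of BP 2. Without the richest cell of each library the levels were 21.5 and 93.2 CPM in BP, 180 in BPI, 15.5 in UT and 0 in CD40. With IgG at 0 UMIs and Ccl1 in few cells, the Ccl1 folds are no lower bounds. The folds and p-values are a description. Ccl3 and Ccl4 encode chemokines that attract T cells and myeloid cells. Ccl3 was at 146 CPM in UT, 32.7 and 14.6 in IgG, 155 and 104 in BP, 465 in BPI and 48.6 in CD40 (BPI 4.77 ± 0.71, adjusted p = 2.77e-06, 1.9e-05 without), and Ccl4 was at 592 CPM in UT, 81.8 and 328 in IgG, 480.0 and 572 in BP, 1374 in BPI and 98.7 in CD40 (BPI 2.90 ± 0.54, adjusted p = 0.000254, 6.91e-06 without). For both, BPI was the highest library. Ccl3 passed in BP only with the large cells kept (adjusted p = 0.0182, 0.211 without), and Ccl4 did not pass there (adjusted p = 0.148).

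Ccl5, a chemokine stored by memory and effector CD8 T cells, was at 2304 CPM in UT, 1717 and 2778 in IgG, 1605 and 3736 in BP, 4010.2 in BPI and 3364 in CD40, with no call in any of these comparisons. Xcl1, which attracts cross-presenting dendritic cells, was at 214 CPM in UT, 81.8 and 1166 in IgG, 79.5 and 196 in BP, 313 in BPI and 191 in CD40. The fall in BP (-2.16 ± 0.52, adjusted p = 0.00923) rested on IgG 2, which was at 1074 CPM even without its large cells; with IgG 2 left out the difference was 0.87. Tnf was at 49.1 and 29.2 CPM in IgG and 10.6 to 50.5 elsewhere, with no call.

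Some genes of activation and costimulation rose in the same groups. Of 23, 6 rose in BP, 7 in BPI and 6 in UT with all cells, where 1.13%, 0.802% and 0.829% of all genes did. Without the large cells, 1, 1 and 3 of 26 rose, where 0.225%, 0.398% and 0.472% of all genes did. With all cells, Tnfrsf9 and the NK cell receptor genes Klrd1, Klrc1 and Klrk1 were among them in all 3. Tnfrsf9 encodes 4-1BB, a costimulatory receptor induced on T cells that have met antigen. It was at 439 CPM in UT, 16.4 and 14.6 in IgG, 325 and 122 in BP, 216 in BPI and 39.5 in CD40, and the IgG libraries held 1 and 2 UMIs. It rose by 3.95 ± 0.74 in BP (adjusted p = 0.000334, 0.00281 without the large cells), 4.10 ± 0.79 in BPI (adjusted p = 0.000543, 0.00269 without) and 5.03 ± 0.77 in UT (adjusted p = 1.4e-06, 6.56e-06 without). It was the activation gene called both ways in BP and BPI.

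Il2ra, the high-affinity chain of the IL-2 receptor, was at 102 CPM in UT, 0 and 21.9 in IgG, 253 and 159 in BP, 135 in BPI and 12.1 in CD40, and rose in BP (adjusted p = 0.000419, 0.0612 without) and BPI (adjusted p = 0.0079, 0.358 without). Icos, a CD28 relative, was at 106 CPM in UT, 0 and 72.9 in IgG, 259 and 281 in BP, 251 in BPI and 53.1 in CD40, and rose in the same groups (adjusted p = 0.00463 and 0.0105, 0.42 and 0.512 without). Klrd1 and Klrc1 encode CD94 and NKG2A, which together form an inhibitory receptor. Klrd1 was at 575 CPM in UT, 16.4 and 87.5 in IgG, 429 and 382 in BP, 347 in BPI and 136.6 in CD40 and Klrc1 at 209.6 CPM in UT, 32.7 and 7.29 in IgG, 214 and 136.4 in BP, 159 in BPI and 42.5 in CD40. Both remained higher in UT without the large cells (adjusted p = 0.0279 and 0.0246) and neither in BP (0.197 and 0.0612). Klrg1, a receptor of short-lived effector cells, was low throughout, at 0 to 16.2 CPM.

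**Figure D3:**
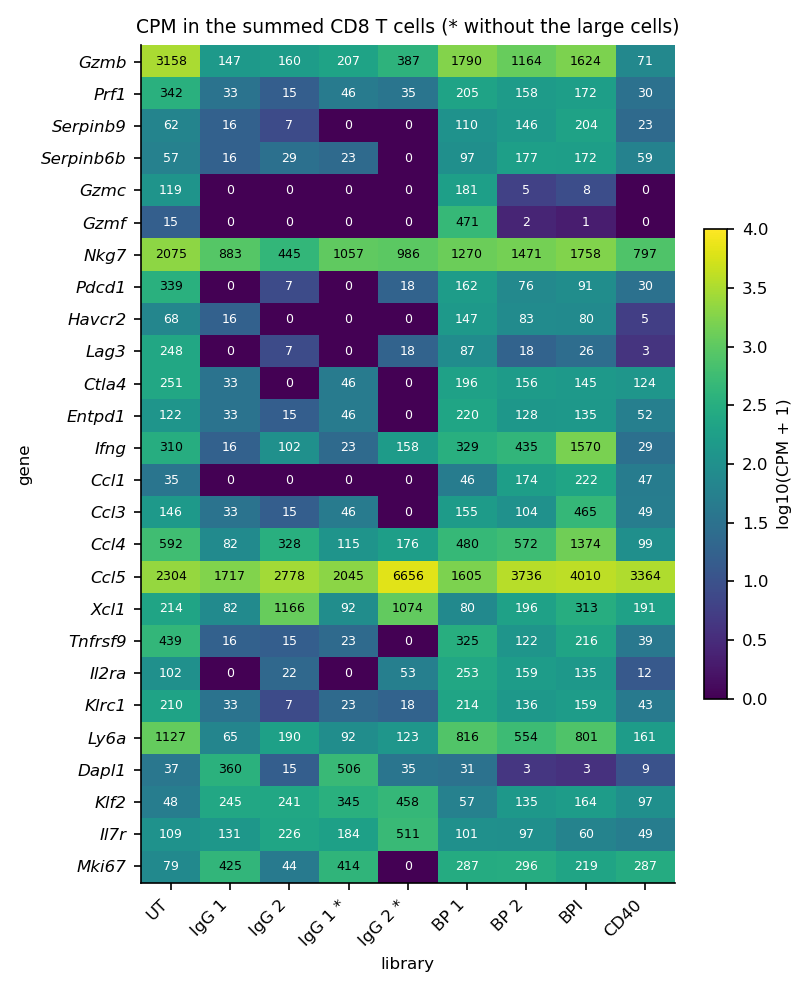
Levels of 26 genes in the summed CD8 T cells of each library, in CPM, with the 2 IgG libraries shown also without their 3 large cells (asterisk); colour is log10(CPM + 1). Gzmb, Tnfrsf9 and Ly6a are higher in UT, BP and BPI than in either IgG column, Ifng, Ccl3 and Ccl4 are highest in BPI, and Klf2 is highest in IgG.

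Few genes of recirculation and memory were called, and most of those called were lower than in IgG. The list includes receptors and transcription factors of naive and memory T cells that return to lymphoid organs. It also holds other genes, such as that of the chemokine Xcl1. Of 21, 3 fell in BP, among them Dapl1 and Xcl1, and Satb1 rose; Dapl1 fell in BPI and S1pr1 in UT. Without the large cells Dapl1, Klf2, Il7r and Xcl1 were among those that fell in BP (0.0919% of all genes lower), Dapl1, Tcf7 and Il7r in BPI (0.0511%), Dapl1 and Il7r in CD40 (0.0715%) and Dapl1, Klf2 and S1pr1 in UT (0.241%), where Id3 rose.

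Klf2, a transcription factor that drives S1pr1, was at 47.8 CPM in UT, 245 and 241 in IgG, 56.7 and 135 in BP, 164 in BPI and 97.2 in CD40. With all cells BPI and BP were not called (adjusted p = 0.985 and 0.218); without the large cells, IgG stood at 345 and 458 CPM and Klf2 fell by 2.10 ± 0.48 (log2, SE) in BP and 2.98 ± 0.64 in UT (adjusted p = 0.00677 and 0.00162). Il7r, the receptor chain for the survival cytokine IL-7, was at 109 CPM in UT, 131 and 226 in IgG, 101 and 97.4 in BP, 59.9 in BPI and 48.6 in CD40, and at 184 and 511 CPM in IgG without the large cells, when it fell by 1.87 in BP, 2.39 in BPI and 2.88 in CD40 (adjusted p = 0.0341, 0.0183 and 0.00337).

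Dapl1, a gene of quiescent memory-like T cells at chr2:59484653-59505020 (GRCm38), was at 37 CPM in UT, 359.8 and 14.6 in IgG, 31.3 and 3.25 in BP, 2.78 in BPI and 9.11 in CD40. IgG 1 alone was high, and IgG 2 lay below UT and BP 1. Its fall in BP (by 2.84 ± 0.68, adjusted p = 0.0082) and BPI (by 5.48 ± 1.02, adjusted p = 0.000264) therefore rested on 1 library: with IgG 1 left out the BP difference was 0.45 and the BPI one was no longer called (adjusted p = 0.671). In UT, where Dapl1 was called without the large cells, the difference with all cells turned from -1.86 to 1.49 with IgG 1 left out and to 0.78 with thinned cells. Tcf7, the factor of stem-like CD8 T cells, was at 30.8 CPM in UT, 32.7 and 102 in IgG, 44.6 and 35.7 in BP, 17.2 in BPI and 78.9 in CD40. Ccr7 was at 49.1 and 43.7 CPM in IgG and 15.2 to 26.2 elsewhere. Slamf6 was at 32.7 and 51 in IgG and 27.7 to 85 elsewhere. Tcf7 was called in BPI without the large cells (adjusted p = 0.0257) and without cells with tumour or myeloid UMIs (0.00589). Ccr7 and Slamf6 were called against IgG neither with all cells nor without the large cells.

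Of 16 tissue retention genes, 3 rose in BP, among them Ccr2 and Rgs1, and Cxcr4 fell, 1 rose in BPI and 1 in UT, and none was called without the large cells, when the difference was 3.66 for Ccr2 (adjusted p = 0.0871, 2.68 with all cells). Cxcr6, which holds T cells in tissue, was at 282 CPM in UT, 196 and 87.5 in IgG, 377 and 357 in BP, 349.7 in BPI and 158 in CD40, and Cxcr3, the receptor for CXCL9 and CXCL10, at 27.7 CPM in UT, 16.4 and 14.6 in IgG, 26.2 and 65 in BP, 51.6 in BPI and 41 in CD40; neither was called. Cd69 was at 147 and 65.6 CPM in IgG and 98.7 to 375 elsewhere, and Itgae, the CD103 integrin chain, was at 1.11 to 21.6 CPM, again with no call.

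With all cells, more interferon-response genes rose in UT than in the other groups. Of 35, 12 rose in UT, 5 in BPI, 4 in BP and none in CD40, with medians of 1.91, 1.61, 1.37 and 0.10. Of all genes, 0.829%, 0.802%, 1.13% and 0.0501% rose in the same order. The summed level of the list was high in the tumour cells of the same libraries too, at 15131 CPM in UT and 8786 in BP 1, against 13935 and 8227 in CD8 T cells. Tumour cells held 4977 CPM in BPI, 2426 in BP 2, 1903 and 1107 in IgG and 986 in CD40. CD8 T cells held 10121 CPM in BPI, 9168 in BP 2, 7817 and 2697 in IgG and 4044 in CD40. The part of this in the result was not tested. With the large cells left out, Ly6a remained in BP, Ly6a and Irf8 with Iigp1 in BPI and in UT, so that UT and BPI then had 3 each. Gbp2, an interferon-induced GTPase, was lost with about the same difference, at 3.56 in UT and 3.61 in BPI against 3.61 and 3.67 (adjusted p = 0.134 and 0.15 without). Ly6a (Sca-1), an interferon-inducible surface protein of activated T cells, was at 1127 CPM in UT, 65.4 and 189.5 in IgG, 816 and 554 in BP, 801 in BPI and 161 in CD40, and rose by 2.38 ± 0.49 in BP (adjusted p = 0.00135, 0.00162 without large cells), 2.80 ± 0.55 in BPI (adjusted p = 0.000667, 0.000259 without) and 3.20 ± 0.54 in UT (adjusted p = 2.73e-05, 7.04e-06 without). Ifitm1, an interferon-inducible membrane protein outside the list, at chr7:140967221-140969825 (GRCm38), was at 1574 CPM in UT, 49.1 and 0 in IgG, 941 and 221 in BP, 201 in BPI and 4.55 in CD40, so that it was high in UT and BP 1 and low in IgG and CD40. The rise was 5.21 ± 0.76 in BP (adjusted p = 1.21e-06, 7.1e-09 without), 3.91 ± 0.85 in BPI (adjusted p = 0.00336, 0.000226 without) and 6.79 ± 0.76 in UT (adjusted p = 6.97e-11, 3.6e-16 without). Without the large cells Ifitm1 was at 0 UMIs in both IgG libraries. It could then enter the test only through the libraries where it was high, so that those p-values are a description. Irf7, the regulator of type I interferon genes, was at 319 CPM in UT, 81.8 and 14.6 in IgG, 88.4 and 127 in BP, 138 in BPI and 30.4 in CD40 and rose in UT (adjusted p = 0.00165, 0.0509 without). Isg15, a ubiquitin-like protein induced by interferon, was at 837 CPM in UT, 605 and 211 in IgG, 253 and 578 in BP, 505 in BPI and 78.9 in CD40; it was not called with all cells, and was lower in CD40 without the large cells (by 2.79 ± 0.62, adjusted p = 0.00337).

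Of 14 MHC class I genes, 2 rose in UT (B2m and H2-D1), 2 in BPI (H2-Q7 and Psmb9) and none in BP or CD40, and none was called without the large cells. In UT the difference went from 2.18 to 1.56 for B2m (adjusted p = 0.0895 without) and from 1.60 to 1.01 for H2-D1 (0.43). In BPI it went from 2.46 to 1.55 for H2-Q7 (0.418) and from 1.99 to 1.39 for Psmb9 (0.512). The summed level of the list in tumour cells was 17021 CPM in UT, 9803 and 3169 in BP and 4636 in BPI. It was 1908 and 1597 in IgG and 1918 in CD40. In CD8 T cells it was 16473 CPM in UT, 10540.5 and 9944 in BP and 11374 in BPI. There it was 7637 and 4717 in IgG and 7158 in CD40. The part of this in the result was not tested. B2m, the light chain shared by class I molecules, was at 5459.8 CPM in UT, 1848 and 962 in IgG, 2740.4 and 2181 in BP, 2329.6 in BPI and 1741 in CD40. Of 28 cell cycle genes, Kif11 rose in BP (adjusted p = 0.0331, 0.476 without the large cells) and none elsewhere with all cells. Mki67, a marker of dividing cells, was at 78.6 CPM in UT, 425 and 43.7 in IgG, 287 and 296 in BP, 219 in BPI and 287 in CD40, and Top2a at 285 CPM in UT, 294 and 102 in IgG, 459 and 391 in BP, 382 in BPI and 615 in CD40. For Mki67, IgG libraries were the lowest and the highest of the 7, and neither gene was called with all cells. The replication-dependent histone gene Hist1h1b was at 21.6 CPM in UT, 0 and 14.6 in IgG, 103 and 461 in BP, 421 in BPI and 390.2 in CD40, and rose in BP (4.95 ± 0.85, adjusted p = 5.25e-05), BPI (5.67 ± 0.87, adjusted p = 6.05e-06) and CD40 (5.35 ± 0.89, adjusted p = 0.000191). These calls held without the large cells (adjusted p = 0.0014, 3.85e-05 and 0.000443). The CD40 call was lost with DESeq2 (5.37, adjusted p = 0.646) and, by edgeR, with thinned cells (8.36, adjusted p = 0.866).

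Cycling cells had lower levels of Gzmb and Ifng than the others in CPM in BPI and BP 2; in BP 1, Gzmb was higher and Ifng and Ccl5 lower in cycling cells. In BPI, Gzmb was at 1117 CPM in cycling and 2289 in other cells, Ifng at 377 CPM in cycling and 3136 in other cells and Ccl5 at 2091 CPM in cycling and 6532 in other cells. In BP 2, Gzmb was at 833 CPM in cycling and 1459.5 in other cells, Ifng at 214 CPM in cycling and 633 in other cells and Ccl5 at 2793 CPM in cycling and 4578 in other cells. In BP 1, Gzmb was at 1945 CPM in cycling and 1642 in other cells, Ifng at 290.4 CPM in cycling and 366 in other cells and Ccl5 at 748 CPM in cycling and 2421 in other cells. Cycling cells were deeper, with medians of 5379.5 against 2732 UMIs in BPI, 5910.5 against 3292.5 in BP 2 and 11751 against 6291.5 in BP 1, and the part of depth in this was not tested. In thinned cells of BPI, Gzmb was found in 52.2% of cycling and 65.3% of other cells, Ifng in 19.9% of cycling and 24.8% of other cells and Ccl5 in 66.2% of cycling and 77.7% of other cells. In those of BP 2, Gzmb was found in 50% of cycling and 53.5% of other cells, Ifng in 10.5% of cycling and 29.1% of other cells and Ccl5 in 73.7% of cycling and 68.6% of other cells, so that the share with Ccl5 was higher in cycling cells there, while its CPM was lower. In those of BP 1, Gzmb was found in 60.2% of cycling and 54.5% of other cells, Ifng in 14.9% of cycling and 13% of other cells and Ccl5 in 27.3% of cycling and 52.7% of other cells. The richest Ifng cell of BPI, given above, enters its CPM values.

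Of 23 genes of the T cell receptor and its signalling, 7 rose in BP (Cd5, Trbc1, Lcp2, Cblb, Ptpn22, Themis and Ptprc), 2 in BPI (Trbc1 and Cd5) and Trbc1 alone in UT, and none remained in any of the 3 without the large cells. Trbc1, a constant segment of the receptor's beta chain, then differed by 0.76 in BP, 1.61 in BPI and 0.93 in UT, against 1.82, 2.66 and 1.98 with all cells (adjusted p = 0.713, 0.235 and 0.59 without). Cd5, an inhibitor of receptor signals, differed by 2.86 and 2.91 in BP and BPI, against 3.29 and 3.33 (adjusted p = 0.134 and 0.186 without). None of 16 PI3K subunits and targets was called between groups, with medians of 0.62 in BP, 0.33 in BPI and -0.38 for BPI against BP. Pik3cd and Pik3cg encode the delta and gamma catalytic subunits that IPI-145 inhibits. Pik3cd was at 100.2 CPM in UT, 81.8 and 72.9 in IgG, 184 and 95.8 in BP, 70.5 in BPI and 86.5 in CD40 and Pik3cg at 13.9 CPM in UT, 32.7 and 0 in IgG, 56.1 and 35.7 in BP, 25 in BPI and 22.8 in CD40; BPI lay below both BP libraries for both, without a call (adjusted p = 1 for both). Pik3ip1, an inhibitor of PI3K that is lost on activation, was at 0 to 12.1 CPM. None of 20 glycolysis and hypoxia genes and none of 17 dissociation and heat shock genes was called in BP, BPI or CD40; Eno1, a glycolytic enzyme, rose in UT (3.06 ± 0.65, adjusted p = 0.00186, 0.0115 without the large cells).

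**Figure D4:**
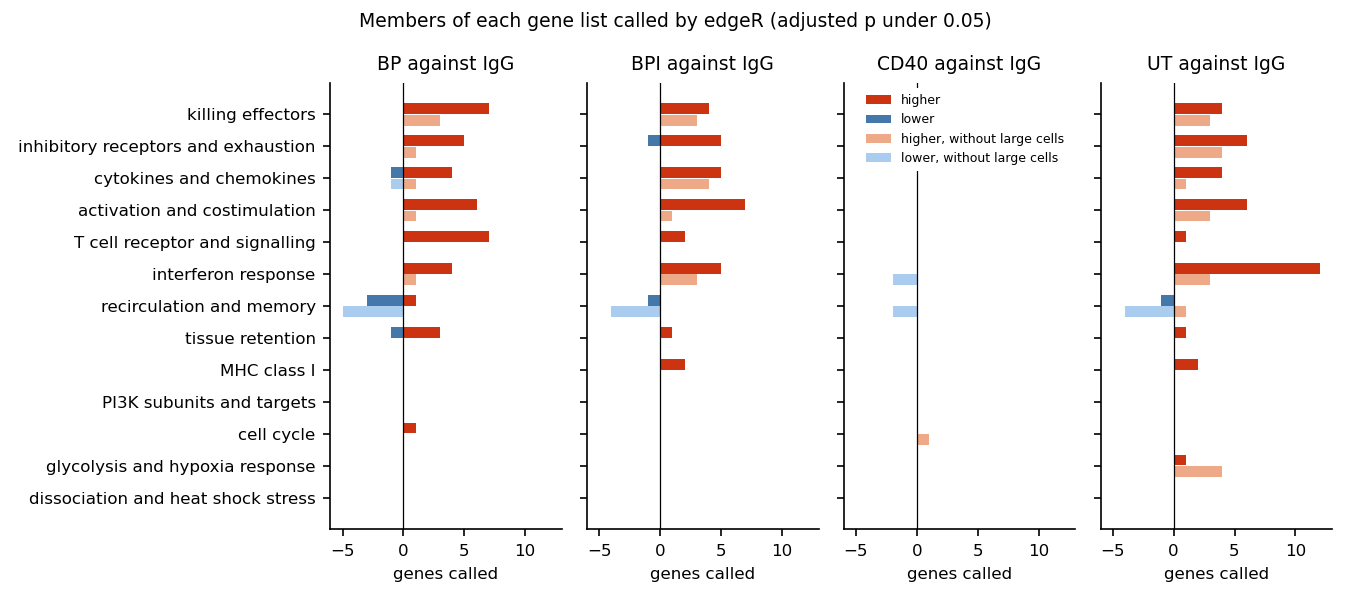
Number of genes of each list called higher (right of 0, red) or lower (left, blue) against IgG in BP, BPI, CD40 and UT, with all cells (dark bars) and without the 3 large IgG cells (pale bars). Killing genes are higher in BP, BPI and UT both ways (7, 4 and 4 genes with all cells, 3 each without), recirculation genes are lower in more numbers without the large cells, and no PI3K gene is called.

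BPI and BP differed in few genes. Of 9976, 6 were called with all cells: Ifng was higher in BPI (0.01% of all genes), and Gzmd, Gzme, Gzmf, Gzmg and Ptn were lower (0.0501%), the granzymes being those of BP 1. Gzmf fell by 7.41 ± 1.19 (log2, SE; adjusted p = 0.000263), although BP 2, at 1.62 CPM, stood beside BPI at 1.11. Ptn, a growth factor of glial and tumour cells, was at 30.3 and 8.12 CPM in BP and 0.555 in BPI (adjusted p = 0.0368). Without the large IgG cells, which enter the shared estimate of the spread, 19 genes were called (0.194%; 0.0511% higher and 0.143% lower), among them Ccl3 (higher by 2.05 ± 0.47, adjusted p = 0.0111) and Gzmc (lower, adjusted p = 0.0014). BPI and BP 2 carry consecutive library numbers, and their levels were 1569.7 and 435 CPM for Ifng, 1624 and 1164 for Gzmb, 1374 and 572 for Ccl4 and 91 and 76.3 for Pdcd1.

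CD40 differed from IgG in 9 genes (0.0902%), 5 of them higher. The 5 were Apoe, Lyz2, Cd74, Alcam and Hist1h1b. The 4 lower genes, named here after their values were seen, were Scgb3a1, Cd93, Igfbp7 and Sparcl1, the last 3 known from vessel walls. All 4 were at 0 UMIs in IgG 1 and carried by IgG 2, and none of the 4 was called without the large IgG cells. Apoe, a lipid carrier of macrophages, was at 2352 CPM in CD40 against 49.1 and 109 in IgG, and Lyz2, the myeloid lysozyme, at 694 against 32.7 and 0; without the richest CD40 cell they stood at 195 and 10.9 CPM. Without the large IgG cells both calls held (adjusted p = 1.91e-12 and 1.34e-06). Without cells that held more than 1 UMI of tumour markers or more than 2 of myeloid markers, the adjusted p was 0.996 for Apoe and 0.996 for Lyz2. Both genes are themselves among the myeloid markers by which these cells were left out. The loss of their calls was therefore fixed in advance and is no finding. Cd74, the MHC class II invariant chain, was at 84.8 CPM in UT, 0 and 0 in IgG, 164 and 43.8 in BP, 258 in BPI and 159 in CD40, and without those cells was called in none of BP, BPI and CD40 (adjusted p = 0.409, 0.889 and 0.996). Alcam, an adhesion molecule, was at 0 UMIs in IgG and at 88.1 to 168 CPM elsewhere, at least 5.82-fold above the floor in CD40 (adjusted p = 0.026), which was lost without the large cells (at least 2.94-fold, 0.0903). It was at least 10.7-fold above it in BP (adjusted p = 7.08e-05), 8.62-fold in BPI (0.000173) and 6.52-fold in UT (0.00134). Without the large cells it was at least 5.43-fold (0.00577), 4.36-fold (0.00592) and 3.3-fold (0.0356). At 0 UMIs in IgG, Cd74 and Alcam could enter the test only through the libraries where they were high. Their folds and p-values are therefore a description. Without the large cells, CD40 gave 33 calls (0.337%), among them a rise of Top2a (2.31 ± 0.60, adjusted p = 0.0408) and falls of Il7r, Dapl1, Isg15 and Ifi27l2a, with no killing gene or inhibitory receptor in either direction. The falls of Ifi27l2a and Dapl1 rested on IgG 1, which held 3309 and 506 CPM without its large cell, against 141 and 35.2 in IgG 2. With all cells and IgG 1 left out, the Ifi27l2a difference turned from -1.88 to 1.47 and that of Dapl1 went from -4.0 to -0.63. The Isg15 difference, -2.22 with all cells, was -1.38 with IgG 1 left out and -2.84 with IgG 2 left out. That of Top2a, 1.83 with all cells, was 2.63 and 1.16 in the same order.

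UT had the highest levels of several effector and inhibitory genes. Besides Gzmb, Prf1, Pdcd1, Lag3, Tnfrsf9 and Ly6a given above, Spp1, a secreted adhesion protein, was at 237 CPM in UT, 0 and 29.2 in IgG, 111 and 14.6 in BP, 14.4 in BPI and 27.3 in CD40 (UT 3.78 ± 0.81, adjusted p = 0.0022, 0.0032 without the large cells), and Irf8 was at 228 CPM in UT, 16.4 and 43.7 in IgG, 183 and 97.4 in BP, 199.8 in BPI and 38 in CD40 (adjusted p = 0.00843, 0.017 without). S1pr1, the receptor by which T cells leave tissue, was at 4.62 CPM in UT against 32.7 and 102 in IgG, and fell by 3.83 ± 1.0 (adjusted p = 0.0227, 0.0279 without). By edgeR, the call held without doublets (adjusted p = 0.0491) and was lost under the stricter rule (-2.45, adjusted p = 0.451). It was also lost without cells with tumour or myeloid UMIs (-4.67, adjusted p = 0.0817). With IgG 2 left out the S1pr1 difference was -2.64. The genes with the largest falls in UT, among them Gm42418, AY036118, Cdk8, Lars2 and Cmss1, include transcripts overlapping ribosomal RNA repeats, and their levels were lower in UT than in each of the other libraries; Gm42418 fell by 8.21 ± 0.68 (adjusted p = 7.78e-18, 5.41e-36 without the large cells).

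Several of the genes that fell most in BP and BPI were no longer lower without the large IgG cells. Itm2a, Mecom, Mef2c, Apbb2, Crip2, Tmem176a and Tmem176b fell in BP, and Itm2a, Mecom, Mdga2, Selenop, Arhgap31, Nes and Tm4sf1 in BPI. All the Itm2a UMIs of IgG 2 came from 1 cell (153 CPM). With the large cells removed, Mecom, Mef2c, Apbb2, Crip2 and Tmem176a in BP and Mecom, Mdga2, Nes and Tm4sf1 in BPI had differences above 0. Cxcr4, the receptor for CXCL12, was at 16.4 and 146 CPM in IgG and 10.3 and 13 in BP, so that IgG 2 alone was high (adjusted p = 0.00178, 0.0568 without).

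CD8 T cells were also compared with the conventional CD4 T cells of the same libraries, with the library as a block. Of 5581 genes, 38 were higher and 91 lower in CD8 T cells (2.31% in all). With cells that held over 20% of a library's UMIs left out of either set, 89 of 7185 were called (1.24%; 0.459% higher and 0.779% lower), 66 of them shared with the first, and without the block 18 were called. The fit without those cells also lacked IgG 1, whose 5 CD4 T cells then fell below the minimum of 5 cells for a test. Genes of the 2 rules are left aside. Of 10 killing genes tested, 4 were higher in CD8 T cells (Gzmb, Prf1, Ctsw and Nkg7; 0.681% of all genes were higher) and none lower. Gzmb was higher by 3.02 ± 0.29 (adjusted p = 1.39e-06) and Prf1 by 3.08 ± 0.34 (adjusted p = 1.21e-05). In CD4 T cells Gzmb was at 559 CPM in UT, 178 and 10.8 in IgG, 94.8 and 185 in BP, 299 in BPI and 0 in CD40, below the CD8 T cells in every library but IgG 1. Ccl5, Xcl1, Ly6c2, Cd27, Klrd1 and Klrk1 were higher in CD8 T cells as well; Ly6c2, a surface protein of memory-type CD8 T cells, by 2.60 ± 0.39 (adjusted p = 0.000532).

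Several genes of the list of inhibitory receptors and exhaustion were lower in CD8 than in CD4 T cells, and costimulatory genes were called in both directions. Regulatory T cells were kept out of the CD4 set only by 0 UMIs of Foxp3, so that those with Foxp3 missed could be in it. BP 1 held 228 CD3 cells with Foxp3 beside its 304 conventional CD4 T cells. The part of such cells in these differences was not tested. Of 19 activation and costimulation genes, 3 were higher in CD8 T cells (Cd27, Klrd1 and Klrk1) and 6 lower (Cd28, Cd40lg, Cd44, Icos, Tnfrsf18 and Tnfsf8). Of 17 inhibitory and exhaustion genes, 6 were lower in CD8 T cells (1.63% of all genes were) and none higher: Ctla4, Tox, Nr4a3, Batf, Irf4 and Nt5e. Ctla4 was lower by 1.46 ± 0.22 (adjusted p = 0.000532) and Tox by 1.26 ± 0.20 (adjusted p = 0.000989), whereas Pdcd1 (-0.52 ± 0.24, adjusted p = 0.446) and Ifng (0.55 ± 0.35, adjusted p = 0.669) were not called. Cd40lg, the ligand of the receptor targeted in the CD40 group, was lower by 3.24 ± 0.47 (adjusted p = 0.000354), and Icos by 1.39 ± 0.26 (adjusted p = 0.00355). Maf, a transcription factor of helper T cells, was at 0 to 29.2 CPM in CD8 T cells and 96.8 to 327 CPM in CD4 T cells of the same libraries, without overlap (-4.0 ± 0.30, adjusted p = 2.52e-08). The noncoding gene Gm44174 was higher in CD8 T cells by 8.63 ± 0.49 (adjusted p = 7.79e-10); it lies at chr6:71353035-71373284 on the plus strand, next to Cd8a at chr6:71373427-71379173, a gene of the rule. Il7r was lower in CD8 T cells (-1.17 ± 0.28, adjusted p = 0.0297). Without the cells of over 20% of a library's UMIs, Gzmb, Prf1, Ctsw, Ly6c2, Cd27, Maf, Cd40lg, Ctla4, Tox, Nr4a3 and Gm44174 were still called, and Gzma was called higher in CD8 T cells (adjusted p = 7.08e-07). Nkg7, Ccl5, Xcl1, Klrd1, Klrk1, Icos, Cd28, Cd44, Il7r, Batf, Irf4 and Nt5e were no longer called (adjusted p = 0.0509 to 0.341). Their differences stayed near those with all cells, such as 2.53 against 2.55 for Xcl1, 2.55 against 2.04 for Ccl5, 1.18 against 1.06 for Nkg7 and -1.43 against -1.43 for Irf4. With all cells, the CD4 side of this comparison held 5 to 304 cells a library. The fit without the cells of over 20% lacked the IgG 1 library as well, and the part of this in the lost calls was not tested.

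**Figure D5:**
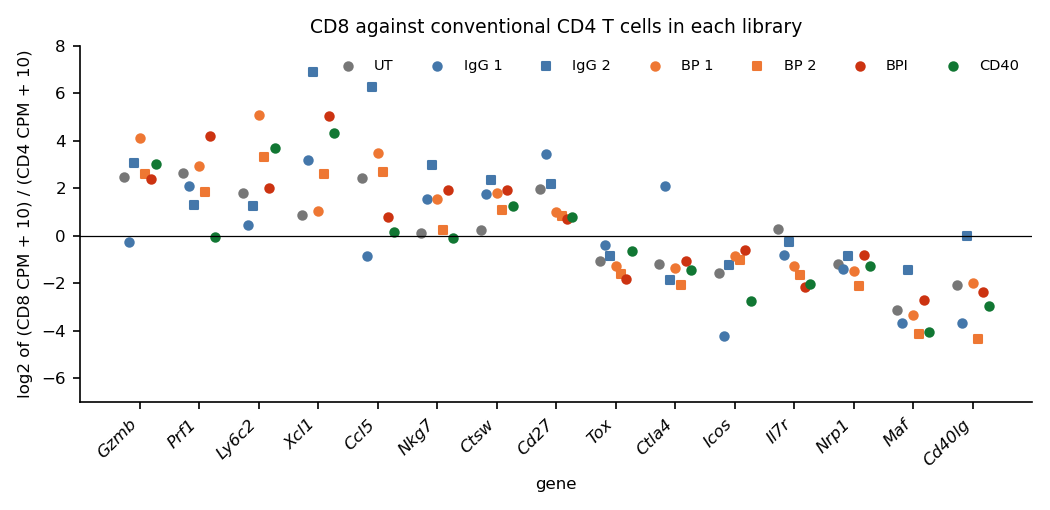
Log2 ratio of the CPM in CD8 T cells to that in conventional CD4 T cells of the same library (10 CPM added to each) for 15 genes; each point is 1 library. Gzmb, Ctsw and Cd27 lie above 0 in nearly all libraries, Tox, Icos and Nrp1 lie below 0 in all, and IgG 1 stands apart for Ctla4, with 5 CD4 T cells.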

How the data were processed

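Whole NSCG tumours were measured by 10x 3′ single-cell RNA sequencing, and the analysis used all 7 deposited libraries of this model. Values are the deposited UMI counts per gene and barcode, not normalized; the file headers name Cell Ranger 4 and the submitters' processing notes Cell Ranger 7.0.1 with mm10. The notes give 1 chemistry for all libraries, while UT lists other barcodes. Cells were barcodes that reached 1000 UMIs and 500 genes with no more than 15% of UMIs from mitochondrial genes, and doublets were scored (Scrublet in scanpy 1.11.5) but kept. Library totals were 68997476 to 186793886 UMIs.

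CD8 T cell counts were summed per library and tested with edgeR 4.0.16 (quasi-likelihood, TMM, filterByExpr, Benjamini-Hochberg over all genes tested, called at adjusted p under 0.05), checked on simulated data; groups of 1 library borrow the spread of IgG and BP. Shares were tested by exact permutation over libraries. A gene at 0 UMIs in IgG was set to a floor of 3 UMIs over the group. Alternatives were DESeq2 1.42.0, other filters, stricter or cleaner cells, thinned cells, a replicate block and each library left out; leaving out the 3 large cells or cells with tumour or myeloid UMIs was added after seeing the data. Pooled tumours are the replicates, nothing in the labels ties replicate 1 of IgG to replicate 1 of BP, and p-values measure the spread between these libraries. Beside a fixed list of 51 genes, the text names up to 10 genes per direction and comparison with average log2 CPM of at least 5 and groups that did not overlap, and members of the gene lists chosen for the text after their values were seen. The cells, lists and names were chosen with earlier results of these data known. Python was 3.11.15 and R 4.3.3. A few genes are not reported here.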

Additional observations from a re-analysis of the deposited data

How the results depend on the processing

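The number of genes called depended on the processing. BP against IgG gave 203 genes, and 31 with DESeq2, 27 without cells with tumour or myeloid UMIs, 31 without the 3 large IgG cells, 9 with each cell thinned to 1000 UMIs, 113 with the replicate block, 0 with UT pooled with IgG and 1 (without IgG 2) to 206 (without IgG 1) with a library left out. BPI against IgG gave 148, and 23 with DESeq2, 91 under the stricter rule, 35 and 44 without cells with such UMIs or the large cells, 15 thinned, 100 with the replicate block, 0 with UT pooled and 3 to 141 with a library left out. CD40 against IgG gave 9, and 1 with DESeq2, 19 without the filter on low counts, 28 without doublets, 18 under the stricter rule, 3 and 33 without cells with such UMIs or the large cells, 1 thinned, 17 with the block and 2 to 9 with a library left out. BPI against BP gave 6, and 0 with DESeq2, 16 without the filter, 3 without doublets, 13 under the stricter rule, 19 without the large cells, 1 thinned, 45 with the block and 0 to 56 with a library left out. UT against IgG gave 135, and 46 with DESeq2, 46 and 71 without cells with such UMIs or the large cells, 21 thinned and 31 to 113 with a library left out. CD8 against CD4 T cells gave 38 higher and 91 lower genes, and in all 364 without the filter, 83 under the stricter rule, 39 thinned and 18 with no replicate block. Thinning leaves fewer UMIs and a left-out library fewer samples; for the others the cause was not tested.

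The deviations of IgG 1 and BP 1 from their group means correlated at r = -0.0626 over 5979 genes. With 2 libraries per group and few IgG cells, this cannot decide whether the replicate numbers pair the libraries. Shares of CD8 T cells and of the killing, inhibitory and cycling states kept their direction on the group means (BP above IgG) in every alternative run. For cycling the difference was only 1.78 points unthinned, with BP 2 below both IgG libraries. The recirculation share turned, to -7.46 points with cells thinned to 2000 UMIs, -0.554 unthinned, -3.23 without IgG 1, and -4.19 to 7.73 over the libraries left out.

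Of single genes, these log2 differences turned in BP: Pdcd1 -0.36 and Ifitm1 -0.095 with UT pooled; with a library left out, Xcl1 -3.06 to 0.87, Tm4sf1 -3.31 to 0.079, Nes -2.53 to 0.35 and Mdga2 -3.38 to 1.10 (each highest without IgG 2) and Dapl1 -5.36 to 0.45 (highest without IgG 1); Mecom 7.21 and Lyz2 -0.48 without cells with tumour or myeloid UMIs; Tm4sf1 0.12 and Selenop 0.76 under the stricter rule; Mdga2 4.11 thinned; and Mecom 7.89, Tm4sf1 0.65, Nes 1.92, Apbb2 1.29, Tmem176a 0.27, Mdga2 8.48, Crip2 0.71 and Mef2c 0.67 without the large cells. In BPI, Pdcd1 was -0.60 and Ifitm1 -1.44 with UT pooled, Selenop 0.19 under the stricter rule, and Mecom 7.15, Tm4sf1 0.47, Nes 1.21 and Mdga2 4.87 without the large cells. In CD40, Apoe was -0.23 and Lyz2 -2.64 without cells with such UMIs, and Lyz2 -1.36 under the stricter rule. Apoe and Lyz2 are among the markers by which cells with myeloid UMIs were left out. Their turns under that setting, in BP as well, are therefore no finding. In UT, Nes was 1.20 without the large cells, and Dapl1, at -1.86 with all cells, was 1.49 without IgG 1 and 0.78 thinned. The Mecom and Mdga2 values above 4 are fits against IgG at 0 UMIs and are no bounds. Depth limits the IgG side most, with 27 cells in all: a gene at 0 there allows up to 11.1% of cells with a UMI, and sets no limit on cells expressing it.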

Other observations

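Transcripts of T cell receptor beta variable genes, which mark the receptor a cell carries, were caught in few CD8 T cells, and the genes caught most often differed between libraries. Any of the 35 Trbv genes was found in 64 of 491 cells of BP 1 (13%), where Trbv1 led with 13 cells, followed by Trbv19 with 11 and Trbv29 with 9. In BP 2 it was found in 19 of 124 cells (15.3%), with Trbv2 and Trbv19 in 7 each, and in BPI in 43 of 378 cells (11.4%), with Trbv2 in 16 and Trbv19 in 9. In CD40, 12 of 60 cells held one, 5 of them Trbv19. The other libraries gave 3 of 15 cells in IgG 2, 1 of 12 in IgG 1 and 2 of 58 in UT (3.45%). Of the Trav genes, 56 cells of BP 1 held 30 different genes and 34 cells of BPI held 21. Trbv19 was among the 3 leading genes in BP 1, BP 2, BPI and CD40, and in IgG 2, where 2 of the 3 cells held it; the difference between libraries was not tested, 3′ libraries reach these segments only in part, and clones cannot be told from these counts.

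Cd274, which encodes PD-L1, was itself measured in CD8 T cells. Its level was 50.9 CPM in UT, 49.1 and 0 in IgG, 79.5 and 73.1 in BP, 52.7 in BPI and 33.4 in CD40, with no call in BP (adjusted p = 0.163) or BPI (adjusted p = 0.482). Satb1, a chromatin organiser of T cells that was listed with the recirculation genes, was at 127.9 CPM in UT, 262 and 102 in IgG, 678 and 404 in BP, 310.3 in BPI and 103 in CD40, higher in both BP libraries than in either IgG library (adjusted p = 0.0357, 0.653 without the large IgG cells), while Lef1 was at 35.5 CPM in UT, 114 and 146 in IgG, 158 and 102 in BP, 82.7 in BPI and 127.5 in CD40. The recirculation genes thus did not all lie on 1 side in BP.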
